A study of Brassica napus with 74 samples.

Results

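*XTH9* encodes a xyloglucan endotransglucosylase/hydrolase, an enzyme that cuts and rejoins xyloglucan chains of the primary cell wall. The seed of *Brassica napus* holds transcripts of 4 genes that the study's gene list gives under this name, BnaA03g25760D, BnaC03g73080D, BnaA09g01390D, and BnaC09g00910D. They are 4 of the 101,040 genes of the expression table, and all 4 were found in it and passed the filter on low values. The study took homoeologs from a published annotation. The identifiers themselves give only the chromosome of each copy, after which the pairs are called the A03/C03 pair and the A09/C09 pair. The copies are called the A03, C03, A09, and C09 copies here. The study picked both pairs from these same libraries, so tests in the ovule seed coat, and comparisons with it, are not independent evidence of what was used to pick them.

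Xyloglucan tethers and coats cellulose microfibrils in the growing wall of dicots, and XTH enzymes can loosen or reinforce that network while cells enlarge. In *Arabidopsis*, XTH9 is one of a large gene family, and family members differ in where they are transcribed. *B. napus* is an allotetraploid with an An subgenome from the *B. rapa* lineage and a Cn subgenome from the *B. oleracea* lineage, so most genes exist as An and Cn homoeologs. The integuments of the ovule surround the nucellus and the female gametophyte, and they enlarge and differentiate into the seed coat after fertilization.

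Subregions of cv. Topas seeds were cut from paraffin sections by laser microdissection (LMD) and sequenced, with no treatment and no mutant. Flowers were pollinated by hand, and siliques were taken at 0 (ovule, ov), 7 (globular, g), 10 (heart, h), and 28 (mature green, mg) days after pollination. The maternal subregions were the chalazal proliferating tissue (CPT) and the chalazal (CZSC), inner (ISC), and outer (OSC) seed coat. The filial subregions were the embryo proper (EP), the micropylar (MCE), peripheral (PEN), and chalazal (CZE) endosperm, and at the mature green stage the cotyledon (mgCOT) and embryonic root (mgROOT). In all, 26 subregions were sequenced in 2 to 5 libraries each (74 libraries), and sections of several plants were pooled for a library. The titles were followed for 3 mature green libraries whose tissue label named another tissue (1 mgCPT and 2 mgCOT libraries). One mgCZSC library matched no sample title and was given no replicate number, and mgCZSC replicate 2 had no library under its own title. The unmatched library may be that replicate or a second run of another numbered sample.

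Transcript levels are in TPM, a measure scaled for gene length and library size, so copies can be compared with each other. The number of reads recovered from the table ranged from 61487 in gMCE replicate 1 to 8397695 in the deepest library, and both are lower limits. A single read on an *XTH9* copy was worth 0.0165 to 7.76 TPM, and it was worth most in ovCPT replicate 2. Values from few reads are therefore coarse. Where groups are said not to overlap, this is a description, since the share of all genes that do so was not counted. Markers of the inner seed coat and CPT (6 copies of *TRANSPARENT TESTA16*, *TT16*) summed to 321 to 509 TPM in the ovISC and 341 to 616 TPM in the ovCPT, against 3.89 to 8.87 TPM in the ovCZSC and ovOSC. Both *LEAFY COTYLEDON1* (*LEC1*) copies, an embryo regulator, summed to 93.0 to 104 TPM in the gEP and 63.1 to 88.0 TPM in the hEP. In the ovCZSC, ovISC, and ovOSC that sum was at most 2.51 TPM. It reached 319 to 391 TPM in the hMCE and 597 to 1001 TPM in the hPEN, and so does not set the embryo apart from endosperm. The 4 copies of *ZHOUPI*, an endosperm regulator, summed to at most 3.41 TPM in the embryo proper libraries. They summed to 64.5 to 77.5 TPM in the hMCE and 60.9 to 104 TPM in the hPEN.

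Summed over the 4 copies, *XTH9* stood highest in the ovCZSC at 973 ± 41.6 TPM (SD, n = 3). It was followed by the ovOSC (925 ± 223 TPM, n = 3), the ovISC (261 ± 47.9 TPM, n = 3), the gEP (128 ± 13.4 TPM, n = 4), the hEP (116 ± 13.3 TPM, n = 3), and the ovCPT (104 ± 33.5 TPM, n = 2). In that order the ovCZSC and ovOSC libraries overlapped, and so did the gEP, hEP, and ovCPT libraries. The ovISC stood apart from its neighbors on both sides. The gMCE came next at 21.2 ± 17.9 TPM (n = 5), and every other subregion had a mean of 13.0 TPM or less.

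**Figure D1:**
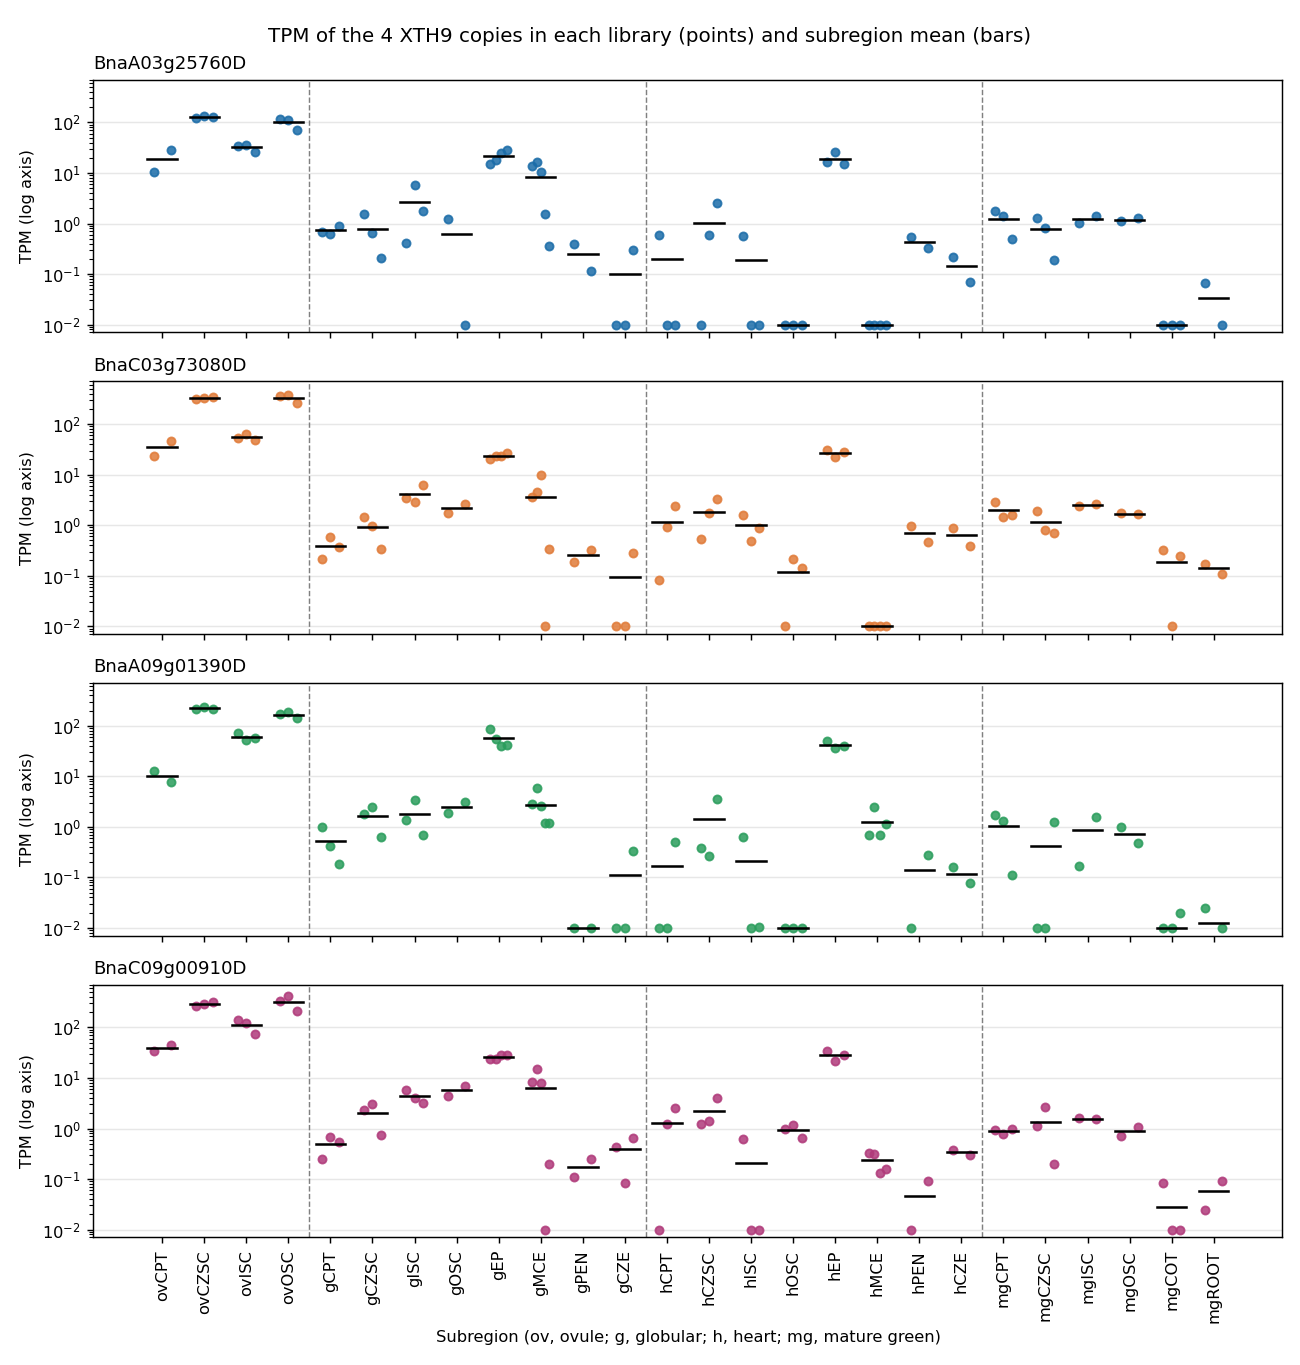
TPM of each *XTH9* copy (log axis) in every library (points) and the subregion mean (bars) over the 26 subregions, ordered by stage, with values under 0.01 TPM drawn at 0.01 TPM. All 4 copies are high in the 3 ovule seed coat subregions (25.96 to 427 TPM) and in the gEP and hEP (14.8 to 88.1 TPM), and low in the seed coat of later stages.

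The ovule seed coat carried the most *XTH9* transcript, and its inner layer carried less than the other layers. The A03 copy had 33.8, 36.2, and 25.96 TPM in the ovISC, against 125, 133, and 128 TPM in the ovCZSC and 119, 114, and 71.1 TPM in the ovOSC. The C03 copy had 52.4, 65.1, and 48.5 TPM in the ovISC, against 319, 332, and 340 TPM in the ovCZSC and 357, 383, and 259.5 TPM in the ovOSC. For both copies every ovISC library was below every library of the other layers. The A09 copy had 72.2, 53.2, and 57.7 TPM in the ovISC, against 212, 231, and 217 TPM in the ovCZSC and 169, 189, and 141 TPM in the ovOSC. The C09 copy had 141, 122, and 75.5 TPM in the ovISC, against 271, 295, and 319 TPM in the ovCZSC and 338, 427, and 207 TPM in the ovOSC. Here too the inner layer did not overlap with the others. In the ovCZSC each copy was above 99.1% to 99.8% of the genes of its library, and in the ovISC above 95.7% to 99.0%. In bulk tissue of this kind, fewer expressing cells and less transcript per cell cannot be told apart.

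Of the 4 copies, 3 were lower in the ovISC than in the ovCZSC (6.05% of the 99,343 genes tested were lower). The log2 changes on the log2(TPM + 1) scale were -1.99 (standard error 0.51, adjusted p = 0.00568, limma) for A03, -2.57 (standard error 0.44, adjusted p = 9.74e-06) for C03, and -1.84 (standard error 0.40, adjusted p = 0.000613) for A09. C09 had -1.42 (standard error 0.52, adjusted p = 0.0968) and did not pass. Between the ovISC and the ovOSC, 2 of 4 copies were lower (2.46% of genes tested were lower). These were C03 (-2.56, standard error 0.44, adjusted p = 3.29e-05, limma) and A09 (-1.43, standard error 0.40, adjusted p = 0.0259). The A03 copy had -1.61 (adjusted p = 0.0747) and the C09 copy -1.50 (adjusted p = 0.13). With 3 libraries against 3, the exact permutation test gave p = 0.1 for each copy in both comparisons, the smallest value it allows. The A09 call against the ovOSC was lost without ovISC replicate 2 or 3 or ovOSC replicate 1 or 2 (adjusted p = 0.0774 to 0.151, limma). With a pseudocount of 0.1 TPM, 0 of 4 copies passed in either comparison, whereas a fit of the compared libraries alone called 4 of 4 in both. Against the ovCZSC, the A03 call was lost with median-of-ratios size factors (adjusted p = 0.0598, limma), and C09 passed with quantile normalization (0.0115), with a replicate block (0.0263), in the fit of the compared libraries alone (0.003), and without the libraries of few reads (0.00181).

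Between the ovCZSC and the ovOSC, 0 of 4 copies passed (5.40% of genes tested differed), and 0 of 4 had an unadjusted p under 0.05 in limma. The log2 changes lay between -0.08 (C09) and 0.41 (A09), with standard errors of 0.40 to 0.52. The An copies were still higher in each ovCZSC library than in every ovOSC library, whereas the Cn copies overlapped.

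The ovCPT, derived from the nucellus, had less *XTH9* than the seed coat layers of the same ovules. Replicate 1 had 10.3 TPM of A03, 22.9 TPM of C03, 12.7 TPM of A09, and 34.3 TPM of C09, and replicate 2 had 27.9, 46.6, 7.84, and 45.3 TPM of the same copies. The values of replicate 2 rested on 4, 7, 1, and 6 reads. All 4 copies were lower than in the ovule seed coat (13.6% of genes tested were lower). The log2 changes were -2.06 (standard error 0.49, adjusted p = 0.000517, limma) for A03, -2.44 (standard error 0.42, adjusted p = 3.93e-06) for C03, -3.57 (standard error 0.38, adjusted p = 8.11e-11) for A09, and -2.42 (standard error 0.50, adjusted p = 7.57e-05) for C09. For C03, A09, and C09 both ovCPT libraries were below all 9 seed coat libraries (exact permutation test, p = 0.0182, the smallest it allows), whereas A03 overlapped with the ovISC (p = 0.0364). The A03 call was lost without replicate 1 (adjusted p = 0.0879, limma) and with a pseudocount of 0.1 TPM (0.0653). With median-of-ratios size factors the changes were -0.98 (A03), -1.35 (C03), and -1.33 (C09), and the A03 and C09 calls were lost (adjusted p = 0.17 and 0.0685). The ovCPT libraries also held 22.4 and 310 TPM of the 6 *OLEOSIN1* (*OLEO1*) copies, an oil body protein gene of maturing seed, against 0.783 to 18.4 TPM in the ovule seed coat libraries. They held 9.15 and 44.6 TPM of the *ZHOUPI* copies, against at most 4.31 TPM in the ovule seed coat, and 8.62 and 10.4 TPM of the 6 copies of the chalazal endosperm markers *MIRO3* and *KIN14T*, against 0.958 to 6.17 TPM. The 2 ovCPT libraries correlated at 0.562 over genes. The part of these transcripts in the result was not tested.

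After pollination *XTH9* was low throughout the seed coat. Over the 8 globular seed coat libraries (gCZSC, gISC, and gOSC), A03 had a lowest, median, and highest value of 0.00931, 0.923, and 5.88 TPM, against 25.96, 114, and 133 TPM over the 9 ovule seed coat libraries. C03 had 0.335, 2.21, and 6.28 TPM in the globular libraries, against 48.5, 319, and 383 TPM in the ovule libraries. A09 had 0.625, 1.85, and 3.44 TPM, against 53.2, 169, and 231 TPM in ovules. For these copies no globular library came near the lowest ovule library. C09 had 0.758, 3.60, and 7.07 TPM, against 75.5, 271, and 427 TPM in ovules. All 4 copies fell (26.3% of genes tested were lower), and the stages did not overlap for any of them. Mean TPM was 60.1-fold (A03), 96.9-fold (C03), 77.5-fold (A09), and 63.7-fold (C09) higher in the ovule than in the globular seed coat. The log2 changes were -5.25 (standard error 0.31, adjusted p = 1.84e-20, limma), -5.88 (standard error 0.26, adjusted p = 1.19e-25), -5.54 (standard error 0.24, adjusted p = 4.78e-26), and -5.55 (standard error 0.31, adjusted p = 4.41e-21) for the same copies. The median over all genes tested was -0.36. The exact permutation test over libraries gave p = 4.11e-05 for each copy, the smallest it allows. Each of the 4 calls held under every alternative run.

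At the globular stage some transcript remained in each maternal layer. The gISC had means of 1.82 TPM (A09) to 4.35 TPM (C09), the gOSC 0.61 TPM (A03) to 5.76 TPM (C09), and the gCZSC 0.79 TPM (A03) to 2.02 TPM (C09). The gCPT was between 0.188 and 1.0 TPM for each copy over its 3 libraries. The highest single value was the 7.07 TPM of C09 in gOSC replicate 2, which rested on 7 reads.

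Between the globular and heart stages, 3 of 4 copies fell further in the seed coat (4.11% of genes tested were lower). C09 ranged from 0.0014 to 4.02 TPM in the 9 heart libraries, against 0.758 to 7.07 TPM in the 8 globular libraries, and its log2 change was -1.29 (standard error 0.31, adjusted p = 0.00508, limma). A09 changed by -1.08 (standard error 0.24, adjusted p = 0.00185), C03 by -0.79 (standard error 0.26, adjusted p = 0.0408), and A03 by -0.63 (standard error 0.31, adjusted p = 0.149). The stages overlapped for each copy. The C03 call was lost without any 1 of 9 libraries (gCZSC replicate 1 or 2, gISC replicate 3, gOSC replicate 1 or 2, hCZSC replicate 2, hISC replicate 2, or hOSC replicate 1 or 2), with adjusted p = 0.053 to 0.114 (limma). All 4 copies passed with a pseudocount of 0.1 TPM, where the log2 changes were -1.81 (A03, adjusted p = 0.0345, limma), -1.57 (C03), -2.81 (A09), and -2.27 (C09), and also without the libraries of few reads (A03 with adjusted p = 0.0411). The C03 call was lost with quantile normalization (adjusted p = 0.146) and in a fit of the compared libraries alone (0.0709). None of the 3 calls held with median-of-ratios size factors (adjusted p = 0.11 for A09, 0.122 for C09, and 0.433 for C03), where the median of all genes moved to 0.43, against 0.23 for TPM as deposited. Some heart libraries held markers of other tissues. The *LEC1* copies summed to 0.492 to 64.5 TPM in the heart seed coat, highest in the hISC (64.5, 3.96, and 17.7 TPM), against at most 0.501 TPM in the globular seed coat. *ZHOUPI* reached 11.1 TPM and *MIRO3* with *KIN14T* 13.6 TPM in the heart seed coat, against 2.9 and 3.67 TPM in the globular seed coat. Their part in the result was not tested. In the hOSC both An copies had 0 reads in all 3 libraries, which allows up to 0.76 TPM, whereas C09 had 0.986, 1.18, and 0.65 TPM from 4 to 5 reads each.

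At the mature green stage the maternal level stayed low. The 7 seed coat libraries had 0.186 to 1.4 TPM of A03 and 0.201 to 2.68 TPM of C09, against 0.00112 to 2.55 TPM and 0.0014 to 4.02 TPM of these copies in the 9 heart libraries. Of the 4 copies, 0 passed (38.5% of genes tested differed), with log2 changes from 0.20 (C09) to 0.67 (A03). An unadjusted p under 0.05 was found for 2 copies in limma (A03 and C03) and for 1 in the exact permutation test (A03, p = 0.0326). The highest heart-stage values came from hCZSC replicate 3, which stood apart from its group. It had 98001 genes above 1 TPM, against 40165 and 76583 in replicates 1 and 2, and correlated at 0.493 and 0.633 with them. It also held the highest *ZHOUPI* (11.1 TPM) and *MIRO3* with *KIN14T* (13.6 TPM) sums of the heart seed coat, and its 2.55 TPM of A03 lay above only 25.3% of its genes. Without this library 2 copies passed (A03 with adjusted p = 0.0285 and C03 with adjusted p = 0.0281, limma). With a pseudocount of 0.1 TPM the same copies passed, with log2 changes of 2.25 (A03, adjusted p = 0.00214) and 1.36 (C03, adjusted p = 0.0323). The *OLEO1* copies summed to 1543 to 14082 TPM in the mature green seed coat, against 1.22 to 44.6 TPM in the heart seed coat, and their part in these values was not tested.

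The embryo proper was the only filial subregion in which each copy exceeded 10 TPM in every library. In the gEP, A03 had 14.8, 18.4, 25.2, and 28.2 TPM and C03 had 20.1, 23.8, 23.1, and 27.4 TPM. A09 had 88.1, 54.1, 40.3, and 41.8 TPM and C09 had 24.1, 24.1, 28.5, and 28.7 TPM in the same libraries. A09 was thus the highest copy in each of the 4 libraries. In the hEP, A03 had 16.8, 25.9, and 14.8 TPM, C03 had 30.4, 22.5, and 27.8 TPM, A09 had 50.7, 36.6, and 39.3 TPM, and C09 had 33.4, 21.5, and 28.9 TPM. A09 was again the highest copy in each library. Replicates 1 and 2 of the gEP held 12 to 64 reads per copy, against 233 to 378 reads in replicates 3 and 4.

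Between the hEP and the gEP, 0 of 4 copies passed (0.891% of genes tested differed), and 0 had an unadjusted p under 0.05 in limma or in the exact permutation test. The log2 changes ran from -0.34 (A09, standard error 0.37) to 0.18 (C03, standard error 0.41). The sign of all 4 turned under at least 1 alternative.

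Against the seed coat of the same stage, all 4 copies were higher in the embryo proper, and no embryo library overlapped with a seed coat library. At the globular stage (8.30% of genes tested were higher), the log2 changes were 3.48 for A03, 2.98 for C03, 4.26 for A09, and 2.56 for C09 (adjusted p of 3.59e-07 or less, limma; exact permutation test, p = 0.00202 each). At the heart stage (5.95% of genes tested were higher), they were 3.94, 3.96, 5.0, and 3.91 for the same copies (adjusted p of 5.38e-11 or less, limma; exact permutation test, p = 0.00455 each). Both exact p-values are the smallest the designs allow. The *TT16* copies summed to at most 1.36 TPM in the 7 embryo libraries, with 0 of 6 copies at 1 TPM or more, against 477 to 535 TPM in the gISC. That sum was also low in the gCZSC (0.682 to 4.25 TPM) and the gOSC (1.48 to 2.03 TPM). It therefore cannot show transcript of these layers in the embryo libraries. The *LEC1* sum of hISC replicate 1 (64.5 TPM) lay within that of the hEP (63.1 to 88.0 TPM), and this library had 0.567 to 1.62 TPM of each *XTH9* copy. *LEC1* was higher still in the hMCE and in the hPEN (597 to 1001 TPM), so its source in this library cannot be told. With a pseudocount of 0.1 TPM the heart-stage change of A03 was 6.38.

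Against the ovule seed coat, all 4 copies were lower in the gEP (39.3% of genes tested were lower). C03 had 23.6 ± 3.02 TPM (SD, n = 4) in the gEP, against 239.5 ± 142 TPM (n = 9) in the ovule seed coat, and its log2 change was -2.90 (standard error 0.32, adjusted p = 8.38e-11, limma). C09 had 26.4 ± 2.60 TPM, against 244 ± 115 TPM, and its log2 change was -2.99 (standard error 0.38, adjusted p = 5.47e-09). Neither Cn copy overlapped between these tissues. A03 had 21.6 ± 6.14 TPM, against 87.4 ± 45.3 TPM (-1.77, standard error 0.38, adjusted p = 0.000129), and A09 had 56.1 ± 22.2 TPM, against 149 ± 71.3 TPM (-1.27, standard error 0.29, adjusted p = 0.000359). Both An copies overlapped with the ovISC. Their calls were lost with median-of-ratios size factors (adjusted p = 0.0674 for A03 and 0.224 for A09) and with quantile normalization (0.0883 and 0.0579), where the changes were -1.17 and -0.70 (size factors) and -0.96 and -0.70 (quantile). The A09 call was also lost with a pseudocount of 0.1 TPM (0.0692). These comparisons share the gEP and ovule libraries with others given here.

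**Figure D2:**
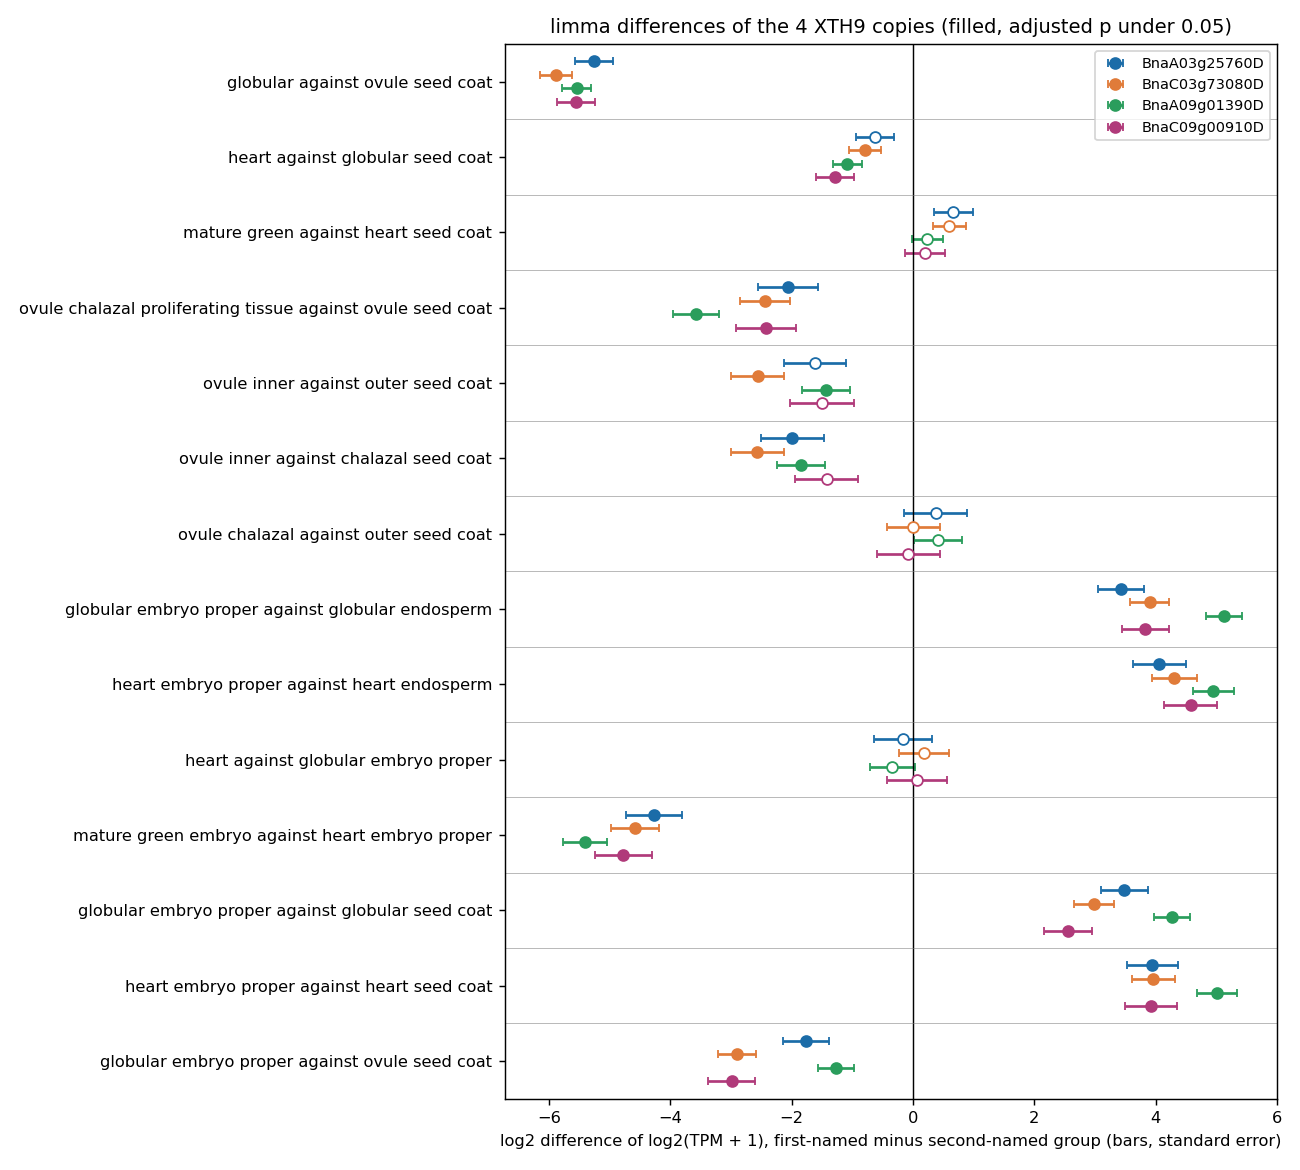
log2 difference of each *XTH9* copy (points, with standard error) in the 14 comparisons, first-named minus second-named group, from 1 limma fit over 74 libraries. Filled points had an adjusted p under 0.05. All 4 copies have values of -5.88 to -5.25 in the globular against the ovule seed coat and stand 2.56 to 5.0 higher in the embryo proper than in the seed coat of the same stage.

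The endosperm held little *XTH9*, with the exception of part of the gMCE. In the gMCE, A03 had 13.8, 16.1, 10.4, 1.57, and 0.361 TPM and C09 had 8.14, 15.3, 8.12, 0.00565, and 0.196 TPM. The C03 copy had 3.6, 4.5, 9.66, 0.00499, and 0.345 TPM and A09 had 2.8, 6.0, 2.55, 1.17, and 1.20 TPM. Replicates 1 to 3 were thus above replicates 4 and 5 for each copy. Replicates 1 to 3 have 2 to 32 reads per copy and are among the libraries with the fewest recovered reads. The *LEC1* copies summed to at most 0.0156 TPM in replicates 1 to 3, with 0 of 2 at 1 TPM or more, and to 15.3 and 7.17 TPM in replicates 4 and 5. The *ZHOUPI* copies summed to 8.54 to 13.4 TPM in replicates 1 to 3, against 1.67 and 2.4 TPM in replicates 4 and 5. The *TT16* sum was at most 2.45 TPM in all 5 replicates. The *MIRO3* and *KIN14T* copies summed to at most 0.0328 TPM in replicates 1 to 3, against 4.89 and 20.1 TPM in replicates 4 and 5. Over genes, libraries of the 2 sets correlated at 0.639 to 0.673, and libraries within a set at 0.894 to 0.938. The parts of depth and of these markers in the split were not tested. Elsewhere in the globular endosperm (gPEN and gCZE), no copy exceeded 0.645 TPM.

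All 4 copies were higher in the gEP than in the globular endosperm (22.7% of genes tested were higher). The log2 changes were 3.42 (standard error 0.38, adjusted p = 5.25e-11, limma) for A03, 3.90 (standard error 0.32, adjusted p = 2.80e-15) for C03, 5.13 (standard error 0.30, adjusted p = 5.42e-21) for A09, and 3.83 (standard error 0.39, adjusted p = 2.49e-12) for C09. For C03, A09, and C09 no gEP library overlapped with the 10 endosperm libraries (exact permutation test, p = 0.000999, the smallest it allows). A03 overlapped, since gMCE replicate 2 (16.1 TPM) was above gEP replicate 1 (14.8 TPM). Without the 6 libraries that had under 250000 recovered reads, among them gMCE replicates 1 to 3 and gEP replicates 1 and 2, the changes were 4.34, 4.49, 4.97, and 4.61 for the same copies, and all 4 still passed.

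In the heart endosperm the highest value of any copy was 2.42 TPM, and it belonged to A09 in an hMCE library. In the hMCE, A09 had 0.686, 2.42, 0.68, and 1.12 TPM from 2 to 15 reads, and C09 had 0.335, 0.315, 0.132, and 0.157 TPM from 1 to 2 reads. The A03 and C03 copies had 0 reads in all 4 hMCE libraries, which allows up to 0.918 and 0.877 TPM. The A09 copy was therefore the highest in each hMCE library, as in each embryo proper library, although the hMCE values rest on 15 reads or fewer. In hMCE replicate 1 the 0.686 TPM of A09 lay below the 0.918 TPM that 0 reads of A03 allow. All 4 copies were higher in the hEP than in the heart endosperm (7.77% of genes tested were higher), with log2 changes of 4.06 (standard error 0.43) for A03, 4.31 (standard error 0.37) for C03, 4.94 (standard error 0.34) for A09, and 4.57 (standard error 0.44) for C09 (adjusted p of 7.65e-11 or less, limma). No library of these groups overlapped (exact permutation test, p = 0.00606, the smallest it allows). With a pseudocount of 0.1 TPM the change of A03 was 6.34.

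The mature green embryo had almost no *XTH9* reads. Over the 3 mgCOT and 2 mgROOT libraries, A03 had 0 to 3 reads, C03 0 to 17 reads, A09 0 to 1 reads, and C09 0 to 4 reads. The highest value of any copy was 0.318 TPM (C03, mgCOT replicate 1), against a lowest value of 14.8 TPM in the hEP. These mature green libraries had 2597 to 6160 genes above 1 TPM, against 31279 to 33577 in the hEP. C03 lay above 26.5% to 87.4% of the genes of its library in the mgCOT and 67.8% to 82.9% in the mgROOT. In the hEP it lay above 97.6% to 98.4%. The part of this difference between libraries in the fall was not tested. In the mgCOT a count of 0 allows at most 0.0731 TPM of a copy. All 4 copies were lower than in the hEP (30.6% of genes tested were lower), with log2 changes of -4.27 (A03), -4.58 (C03), -5.41 (A09), and -4.77 (C09), standard errors of 0.36 to 0.47, and adjusted p of 2.15e-11 or less (limma). The exact permutation test gave p = 0.0179 for each, the smallest it allows. For copies at 0 reads these changes depend on the 1 TPM added to each value, and with 0.1 TPM added they were -7.36 (A03), -8.58 (A09), and -7.65 (C09).

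The balance between homoeologs was compared through the log2 ratio of An over Cn in each library, after 1 TPM was added to both. In the embryo proper the A09 copy was above the C09 copy in 7 of 7 libraries, whereas in the ovule seed coat it was below in 9 of 9. The A09/C09 ratio was 1.83, 1.13, 0.49, and 0.53 in the gEP and 0.59, 0.74, and 0.43 in the hEP. In the ovule seed coat it was -0.96, -1.19, and -0.38 in the ovISC, -0.35, -0.35, and -0.56 in the ovCZSC, and -1.0, -1.17, and -0.55 in the ovOSC. The mean was 0.82 ± 0.50 (SD, n = 7) in the embryo proper, against -0.72 ± 0.35 (SD, n = 9) in the ovule seed coat. The difference of 1.54 was tested by an exact two-sided permutation of libraries (p = 8.74e-05, adjusted p = 0.000699 over 8 ratio tests), and no library of one tissue overlapped with the other. The test pooled the seed coat layers and both embryo stages, and its ovule side holds libraries from which the pairs were picked. The highest 2 ratios were those of gEP replicates 1 and 2, which rest on 17 to 64 reads per copy. Without them the difference was 1.28 (adjusted p = 0.004, exact permutation test), and the embryo mean of 0.55 in 5 libraries could not be tested below p = 0.0625 against 0.

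The A03/C03 pair moved the same way by less. Its ratio was -0.41, -0.36, 0.12, and 0.04 in the gEP and -0.82, 0.20, and -0.87 in the hEP. It was -0.62, -0.83, and -0.88 in the ovISC, -1.35, -1.31, and -1.41 in the ovCZSC, and -1.57, -1.74, and -1.85 in the ovOSC. The mean was -0.30 ± 0.44 (SD, n = 7) in the embryo proper, against -1.28 ± 0.43 (SD, n = 9) in the ovule seed coat, a difference of 0.98 (exact permutation test, p = 0.000962, adjusted p = 0.00385). The ranges met, since the ratio of 2 hEP libraries lay among those of the ovISC. Against 0, the exact two-sided sign-flip permutation test gave p = 0.00391 (adjusted p = 0.00625) for both pairs in the ovule seed coat, the smallest p that 9 libraries allow. In the embryo proper this exact test gave p = 0.0156 (adjusted p = 0.0208) for A09/C09, the smallest p for 7 libraries, and p = 0.125 (adjusted p = 0.143) for A03/C03.

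Within the ovule seed coat the A03/C03 ratio differed by layer without overlap, from -0.77 ± 0.14 in the ovISC to -1.35 ± 0.05 in the ovCZSC and -1.72 ± 0.14 in the ovOSC (SD, n = 3 each). The A09/C09 ratio did not follow this order, with -0.84 ± 0.41 in the ovISC, -0.42 ± 0.12 in the ovCZSC, and -0.91 ± 0.32 in the ovOSC. In the ovCPT both pairs had more Cn transcript, with A03/C03 ratios of -1.09 and -0.72 and A09/C09 ratios of -1.36 and -2.39 in replicates 1 and 2. Only uniquely mapped reads had been counted, so a read that fits an An and a Cn copy alike adds to neither.

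**Figure D3:**
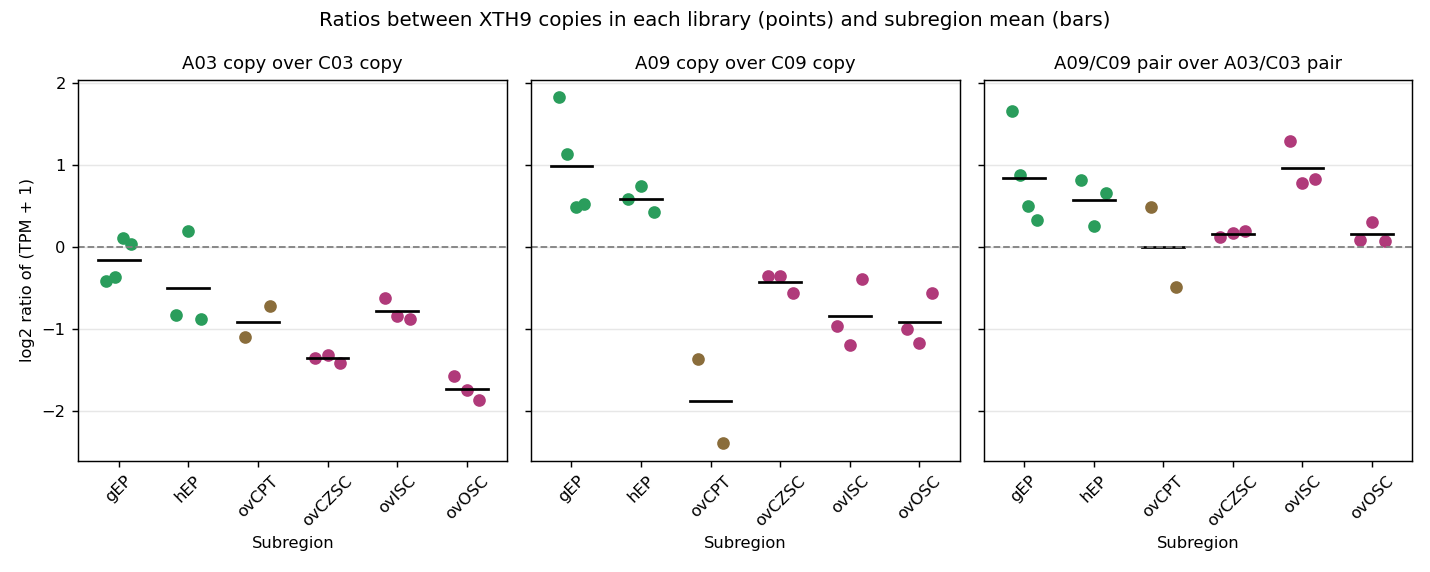
log2 ratio of (TPM + 1) between the copies of each pair and between the pairs, in each library of the embryo proper (green), ovCPT (brown), and ovule seed coat (purple), with subregion means as bars. The A09/C09 ratio is above 0 in all 7 embryo proper libraries and below 0 in all 9 ovule seed coat libraries.

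The A09/C09 pair together was above the A03/C03 pair in 9 of 9 ovule seed coat libraries, with a mean log2 ratio of 0.43 ± 0.43 (SD; exact sign-flip permutation test, p = 0.00391, adjusted p = 0.00625). The excess was largest in the ovISC at 0.97 ± 0.28, against 0.16 ± 0.04 in the ovCZSC and 0.16 ± 0.13 in the ovOSC (n = 3 each). In the embryo proper the mean was 0.73 ± 0.47 (n = 7), and the difference of 0.30 from the ovule seed coat did not pass (exact permutation test, p = 0.211, adjusted p = 0.211).

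As shares of the summed *XTH9* TPM, A09 made up 40.1% ± 9.60 (SD, n = 7) in the embryo proper, against 21.5% ± 3.47 (n = 9) in the ovule seed coat. C09 made up 22.2% ± 3.5 in the embryo proper, against 35.7% ± 6.43 in the ovule seed coat. C03 made up 20.6% ± 3.61, against 30.6% ± 7.19, and A03 made up 17.1% ± 5.56, against 12.2% ± 1.22. The most abundant copy was thus A09 in the embryo proper and a Cn copy in the ovule seed coat. Both Cn copies together gave 30.0% to 51.2% of the transcript in embryo libraries, against 59.7% to 72.7% in ovule seed coat libraries.

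**Figure D4:**
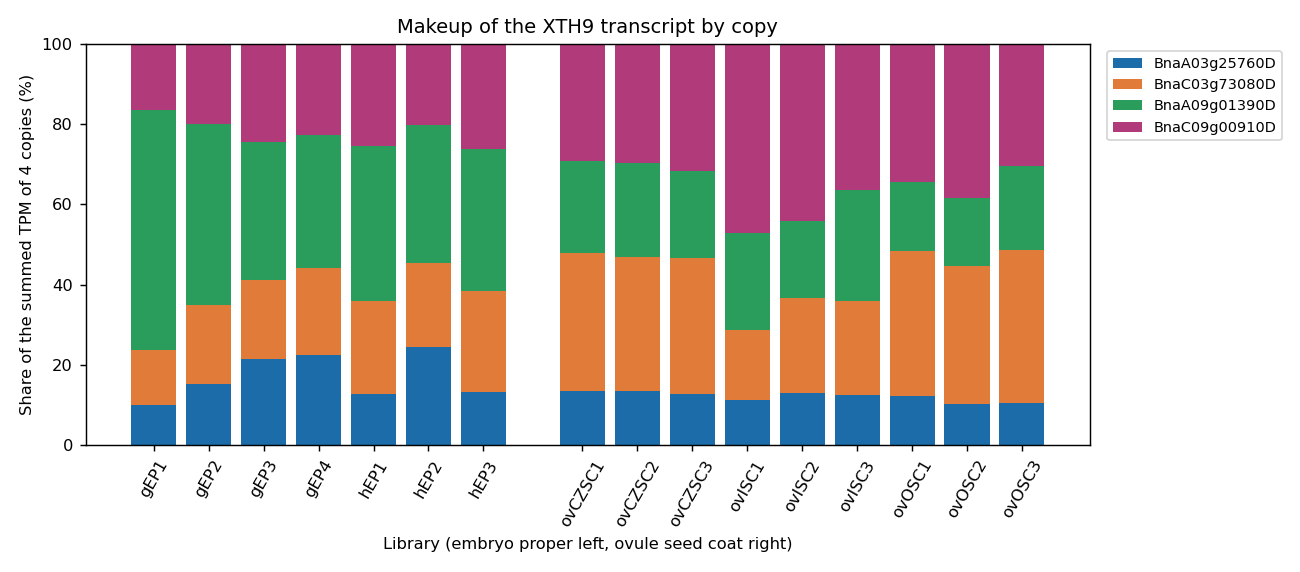
Share (%) of each copy in the summed *XTH9* TPM of each embryo proper library (left) and ovule seed coat library (right). A09 holds 33.1% to 59.9% in the embryo proper libraries, and the Cn copies together hold 59.7% to 72.7% in the ovule seed coat libraries.

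The profile of each copy over the 26 subregions was most like those of the other copies. Among 35989 genes whose mean reached 10 TPM in some subregion, the 3 genes with the highest Pearson correlation to any copy (across subregion means of log2(TPM + 1), n = 26) were the other 3 copies. The correlation was 0.983 for C03 with C09, 0.982 for A03 with C03, 0.973 for A03 with A09, and 0.971 for C09 with A03 and with A09. It was lowest between C03 and A09, at 0.966. These values share libraries and depth and are given as a description. The nearest genes that are not *XTH9* copies were BnaA04g16780D (0.958) and BnaC04g40170D (0.955) for A03, and BnaCnng17710D (0.958) and BnaA04g26130D (0.956) for C03. For A09 they were BnaA08g27030D (0.961) and BnaA09g33470D (0.960), and for C09 BnaA04g26130D (0.963) and BnaA06g10270D (0.961). Over the 74 single libraries, the 5 nearest genes were the same 5 for A03, C03, and C09 and shared 4 of 5 for A09. The files do not pair these identifiers with gene names.

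Of the other genes for wall polymers, those listed under xyloglucan metabolism and under wall loosening in the part of the study's gene ontology table to hand were compared between the globular and ovule seed coat. The study grouped both lists from these libraries. Of 16 xyloglucan genes, 2 fell, 0 rose, and 14 did not pass, where 26.3% of all genes tested were lower, with a median log2 change of -0.29, against -0.36 over all genes tested. BnaA07g22270D had 6.71 ± 3.73 TPM (SD, n = 8) in the globular seed coat, against 14.0 ± 3.48 TPM (n = 9) in the ovule seed coat (log2 change -1.07, adjusted p = 0.0268, limma), and BnaC07g35670D was at most 0.295 TPM in globular and 1.48 TPM in ovule libraries (-0.49, adjusted p = 0.0359). Of 16 wall loosening genes, 4 fell, 0 rose, and 12 did not pass, a share near that 26.3%, with a median of -0.46. The largest changes were in BnaA04g16780D and BnaC04g40170D, the genes named above as nearest to A03. BnaA04g16780D had 0.546 ± 0.624 TPM in the globular seed coat, against 30.4 ± 16.0 TPM in the ovule seed coat (log2 change -4.14, standard error 0.21, adjusted p = 1.17e-22, limma). BnaC04g40170D had 0.78 ± 1.25 TPM, against 27.4 ± 17.2 TPM (-3.69, standard error 0.29, adjusted p = 2.51e-15). In the embryo proper they had means of 15.3 and 9.28 TPM.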

How the data were processed

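The deposited values are TPM, computed by the authors from RNA-seq reads of 74 libraries. Reads had been cleaned (fastp), mapped with HISAT2 against the Darmor-bzh genome, and assigned to genes by featureCounts where they mapped uniquely. Settings are not given in the sources used here. No gene is listed at 0, since 0.01 of a read stands in each value, and the steps above this constant gave the reads on each copy.

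Levels were tested with limma (version 3.58.1, trend in the variance) on log2(TPM + 1) in 1 fit of 26 subregion means, for the 99343 genes whose mean reached 1 TPM in some subregion. Two-sided p-values were adjusted over all genes tested (Benjamini-Hochberg), with a limit of 0.05. Exact permutation tests of library values were run for each copy. The tests were checked on simulated data. The titles gave each library's group, and nothing shows that libraries came from separate plants, so limma p-values rest on the spread between pools. That spread was estimated for each gene over all 74 libraries, not only over those compared. For C09 in the ovISC against the ovCZSC, the standard error was 0.52 in this fit and 0.26 in the compared libraries alone. The exact tests pooled the libraries of several subregions in most comparisons, so their spread also holds differences between those subregions. Each pair of replicate libraries differed by more than sampling noise. Genes named in the text were the 4 copies, the 5 genes most like each, and the largest changes in the wall gene lists. The members, lists, and tests were chosen with earlier results of these data known. Alternatives covered the pseudocount, filters, scaling, libraries fitted, each library left out, and, added after seeing the data, the 6 libraries under 250000 recovered reads left out.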

Additional observations from a re-analysis of the deposited data

Results flagged for a closer look

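Both An over Cn ratios differed between the embryo proper and the ovule seed coat. The difference in mean log2 ratio was 1.54 for the A09/C09 pair and 0.98 for the A03/C03 pair, in both cases higher in the embryo proper (exact permutation tests over 7 and 9 libraries, adjusted p = 0.000699 and 0.00385). The ovule side of both differences holds libraries from which the study picked these pairs. Only 3 subregions (gEP, gMCE, and hMCE) had at least 4 libraries. The 15 sets of values looked at there were the 4 copies in each and the ratios in the gEP. None held a single library far from the others. A search for single libraries cannot flag a split between groups of libraries, so it does not bear on the gMCE split described above. In the gEP too, replicates 1 and 2 correlated with replicates 3 and 4 at 0.836 to 0.842 over genes. Within these sets the correlations were 0.922 and 0.981. The part of depth in this difference was not tested. The gMCE ratios were not looked at in this way.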

How the results depend on the processing

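Of 1072 values of a copy in a comparison under an alternative, 1003 kept their direction and their side of the threshold, 33 lost the call, 22 gained one, and 14 turned in sign. The ratio tests kept theirs in 117 of 118 cases. The number of copies called (of 4) changed as follows. For heart against globular seed coat (3) it was 0 under median-of-ratios size factors, 2 under quantile normalization and in a fit of the compared libraries alone, 4 with a pseudocount of 0.1 TPM, and 2 to 3 with single libraries left out. For mature green against heart seed coat (0) it was 2 with size factors and with that pseudocount, and 0 to 2 with single libraries left out. For the ovCPT against the ovule seed coat (4) it was 2 with size factors, 3 with that pseudocount, and 3 to 4 with single libraries left out. For the ovISC against the ovOSC (2) it was 0 with that pseudocount, 3 under quantile normalization, 4 for the compared libraries alone, and 1 to 2 with single libraries left out. For the ovISC against the ovCZSC (3) it was 0 with that pseudocount, 2 with size factors, and 4 under quantile normalization and for the compared libraries alone. For the gEP against the ovule seed coat (4) it was 2 with size factors and under quantile normalization, and 3 with that pseudocount. Without the libraries under 250000 recovered reads, which were chosen after seeing the data, it was 4 for heart against globular seed coat, 2 for mature green against heart seed coat, and 4 for the ovISC against either layer, and the A09/C09 ratio in the embryo proper (0.55) no longer passed, since 5 libraries cannot. The cause of these changes was not tested.

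The replicate numbers were not used to pair the samples in the main fit. Deviations of same-numbered libraries correlated between -0.15 and 0.16. Differently numbered libraries were not set beside them, so these values cannot decide whether the numbers pair the samples. With the replicate number as a replicate block, 4 copies passed for the ovISC against the ovOSC and against the ovCZSC and 1 for mature green against heart seed coat, and the change between the hEP and the gEP was -0.021 for C03 and -0.22 for C09.

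Signs turned only for changes that had not passed. For the ovCZSC against the ovOSC, C03 had -0.29 (size factors) and -0.0377 (quantile), and -0.16 to 0.12 with single libraries left out, and C09 had -0.37 to 0.15. For the hEP against the gEP, A03 had 0.36 (size factors) and 0.30 (quantile), A09 had 0.22, 0.13, and 0.0248 (without libraries of few reads), and C09 had -0.0544 without those and -0.0713 to 0.24 with single libraries left out. Depth limits the ovCPT, gMCE, and later maternal values most. In the gMCE and later maternal libraries 1 read can be worth more than the level given, and in ovCPT replicate 2 the A09 level rested on 1 read.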

Other observations

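The An and Cn copies were also unevenly read in the gMCE. The A03 copy was above the C03 copy in 5 of 5 libraries, with log2 ratios of 1.68, 1.64, 0.10, 1.36, and 0.02. The A09/C09 ratio was -1.26, -1.22, and -1.36 in replicates 1 to 3 and 1.11 and 0.88 in replicates 4 and 5. These values rest on 0 to 32 reads per copy, and the difference from other subregions was not tested.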
